A study of Mus musculus with 4 samples.

Results

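The comparison set 2693 T cells from mouse melanoma, which carry the authors' cell label Tdp, against 2788 T cells from lymph node, labelled Cd8. Together they are 5481 of the 10558 cells in the deposited gene table. Cells were chosen by the authors' tissue and cell labels. The raw counts of each side were summed, scaled by their total to CPM, the usual unit of level in such libraries, and compared gene by gene as the log2 ratio of CPM + 1, tumor Tdp over lymph node Cd8. Where a gene has a pair of CPM values, the tumor Tdp value comes first and the lymph node Cd8 value second.

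Per the labels, mice received B16F10 melanoma cells under the skin in matrigel, then 250 mg/kg cyclophosphamide by a single intraperitoneal injection. A day later they received purified TRP1 CD4+ T cells, whose transgenic receptor recognises a melanocyte protein, and tissue was taken on day 11 after that transfer. The donor strain is given as RAG1- BW TRP-1 TCR and the treatment field of all 4 samples reads untreated. The tumor library is titled as transgenic and endogenous and the lymph node library as endogenous, and both share the same protocol text, which describes a sort of CD45.1 TRP1 CD4+ and CD4+CD8+ cells from tumors. Neither the number of animals behind each library nor the rule behind the label Tdp is given in the sources used here. There is 1 RNA library per tissue, so the values below have no replicate and no test, and every interval, exact at 95%, covers counting error only. Tissue, receptor origin, cell transfer and library all differ between the sides and cannot be told apart.

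CD4 and CD8 are coreceptors that hold the T cell receptor to MHC class II and class I. Mature T cells normally keep a single coreceptor, and CD4+CD8+ cells are best known as a stage of thymic development. CD8+ T cells that leave rest lose the homing receptors of lymph nodes, take up inflammatory homing receptors, and fill granules with perforin and granzymes, and cells under lasting stimulation carry inhibitory receptors such as PD-1, TIM-3 and LAG-3.

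The label Tdp matched UMIs (unique molecule counts) of both coreceptors in most cells. Of the Tdp cells, 2028 (75.3%) had UMIs of Cd4 as well as a Cd8 gene (Cd8a or Cd8b1), 554 (20.6%) of Cd8 genes only and 86 (3.19%) of Cd4 only. Of the lymph node Cd8 cells, 57 (2.04%) had both and 2607 (93.5%) had Cd8 genes only. Cd8b1 stood at 1118 CPM in tumor Tdp and 1144 CPM in lymph node Cd8 cells, and Cd8a at 751 and 509 CPM. Cd4 stood at 289 and 13.0 CPM. The coreceptor genes were kept out of all counts below.

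Of the 10 genes in the marker list of double positive thymocytes, 7 are in the table, and their summed level was 18.5 CPM in tumor Tdp and 32.8 CPM in lymph node Cd8 cells. Dntt, the terminal transferase, and Ccr9 are listed at 0 throughout the tumor library, where a gene absent from the cells and a gene removed from that library before deposit cannot be told apart. The most frequent receptor call of the tumor library was taken as the transgenic receptor, since the labels do not give its sequence in the sources used here. All 2682 Tdp cells with a receptor call carried a chain of it, and the most frequent call covered 2643 of them. None of its chains was found in lymph node Cd8 cells (0 of 2669 called), which held 2655 distinct receptors.

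The sides were close in depth. Tdp cells had 18245237 UMIs in all, with medians of 6633 UMIs and 1917 genes per cell, and lymph node Cd8 cells 18119264 UMIs, with medians of 6306 and 1695. The median share of ribosomal protein genes in a cell's counts was 29.5% for Tdp and 44.8% for lymph node Cd8 cells. The libraries shared 36 cell barcodes, 12 of them between Tdp and Cd8 cells. B cell markers summed to 9.26 CPM in tumor Tdp and 218 CPM in lymph node Cd8 cells, macrophage markers to 18.1 and 8.83 CPM, melanoma markers to 2.69 and 2.65 CPM and natural killer markers to 217 and 90.5 CPM. Their part in the results was not tested, beyond an alternative that left out cells with some B cell, myeloid or melanoma markers. That choice of cells used no natural killer marker and left aside Ighm, Cd79b, Cd68, Cd74, Itgax and Mitf. Ighm and Cd79b stood at 195 and 19.3 CPM in lymph node Cd8 cells, most of the B cell sum. Of the defining markers, Ms4a1 (B cells), Adgre1 (macrophages) and, in tumor Tdp cells, Ncr1 (natural killer cells) are listed at 0, with the same doubt, while Cd68 of macrophages stood at 13.0 and 6.13 CPM and Klre1 of natural killer cells at 45.8 and 6.02 CPM. Gzma was the largest part of the natural killer sum in Tdp cells, at 112 and 17.5 CPM. Fcer1g of that list was higher there (10.6 and 4.69 CPM), while Klrb1c (1.53 and 2.70 CPM) and Tyrobp (3.95 and 7.01 CPM) were lower.

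Tumor Tdp cells had high levels of granule, chemokine, metallothionein and inhibitory receptor genes. Most genes of lymph node homing and of the resting state were lower there, though the resting-state factors still summed to 2917 and 4641 CPM. Of 4830 genes with 20 CPM or more on either side, 550 (11.4%) stood 2-fold or more above lymph node Cd8 in tumor Tdp cells and 244 (5.05%) 2-fold or more below, and the median log2 ratio of all of them was 0.17. Counts of list members below are to be read beside these shares. Past 8-fold, 100 genes were higher and 42 lower, and at 64-fold 10 and 7. Leaving ribosomal protein, mitochondrial and receptor genes out of the total shifts a ratio by -0.31 on the log2 scale before the added 1, and the same 4830 genes then gave 361 higher and 431 lower. The direction of small ratios, the calls of genes near 2-fold and the balance of higher and lower genes therefore depend on the scaling. The 30 genes picked by the naming rule stayed past 2-fold in every alternative, but they were picked for the largest ratios, so this was largely fixed beforehand.

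**Figure D1:**
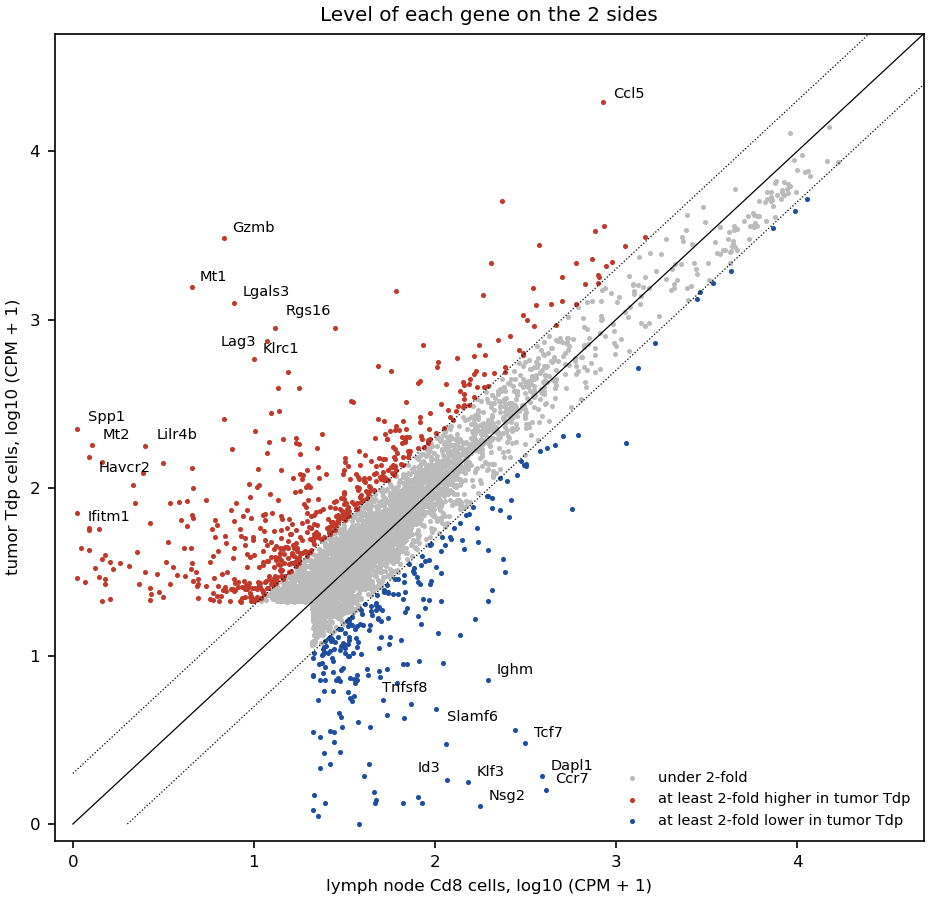
Level of each of 4830 genes in lymph node Cd8 cells (horizontal) and tumor Tdp cells (vertical), both as log10 of CPM + 1, with 550 genes at least 2-fold higher in tumor Tdp cells in red and 244 at least 2-fold lower in blue. The solid line marks equal levels and the dotted lines 2-fold; Gzmb (3056 against 5.79 CPM) and Ccr7 (0.603 against 412 CPM) lie farthest from it on their sides on the log2 scale.

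The named gene with the highest log2 ratio of CPM + 1 was Gzmb, granzyme B, a protease that kills target cells from within. It stood at 3056 CPM in tumor Tdp and 5.79 CPM in lymph node Cd8 cells, a 527-fold difference (436 to 645) without the added 1. On that scale Spp1, Ifitm1, Havcr2 and Mt2 had larger ratios, each over 5 or fewer UMIs in lymph node Cd8 cells. A Gzmb UMI was present in 97.0% of Tdp cells (96.3% to 97.6%) and 1.90% of lymph node Cd8 cells, and with every cell thinned to 2000 UMIs in 91.7% and 0.869%. Lymph node Cd4 cells, which are not known for granzyme B, showed it in 0.160% of cells at a median of 4763 UMIs. Thinned Tdp cells held a median of 5 Gzmb UMIs, with 17 at the 95th percentile and 50 at most. Tumor Cd4-labelled cells come from the same library, with a chain of the same receptor in every receptor call. They had Gzmb in 47.3% of cells and at 490.5 CPM.

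The promoter of Gzmb and those of 3 other genes among the 15 with the highest ratios hold the letters of an AP-1 site within 250 bases before or 50 after the gene's start. AP-1, the factor of FOS and JUN proteins, is a classic response of stimulated T cells. Of the motifs searched, only this one is printed in sequence. FOS and JUN family transcripts split by member, with Fos and Jun lower and Fosl2 and Jund higher in tumor Tdp cells, as given below. Whether AP-1 has a part in the levels of the genes shown was not tested. Capitals mark TGANTCA, which reads the same on both strands. Sequences are from RefSeq on GRCm38.p6, written 5′ to 3′ on the gene's strand.
Gzmb, chr14:56262356-56262422, minus strand: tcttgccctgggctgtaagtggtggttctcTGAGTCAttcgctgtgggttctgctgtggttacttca
Havcr2, chr11:46454701-46454767, plus strand: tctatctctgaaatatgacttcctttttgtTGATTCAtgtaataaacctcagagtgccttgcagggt
Mt2, chr8:94172509-94172575, plus strand: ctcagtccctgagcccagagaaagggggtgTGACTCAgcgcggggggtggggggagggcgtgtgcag
Fgl2, chr5:21372627-21372672, plus strand: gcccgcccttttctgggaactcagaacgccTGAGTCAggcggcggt
The capitals begin 58 bases before the start of Gzmb, 200 before that of Havcr2, 79 before that of Mt2 and 16 before that of Fgl2. Of the 15 named genes higher in tumor Tdp cells 14 have a promoter in the RefSeq table, and of the 15 lower 10 have one, with the AP-1 letters in 4 and 0 of them. The same letters occur in 7.81% of all 32851 promoter windows of that table. The counts are of genes with the letters in any of their windows, while the share is over single windows. They are therefore not directly comparable, here and for the motifs below, and no share per gene was computed. Other motifs were searched on both strands in the same way. The T-box letters TCACACC were in 1 and 0 of the named promoters and 3.98% of all windows, NFAT letters GGAAAA in 2 and 2 and 23.4%, and TCF/LEF letters CTTTGAT in 0 and 0 and 3.73%. KLF letters CACACCC were in 3 and 2 and 7.95%, the hypoxia core ACGTG in 2 and 1 and 19.6%, and the interferon-stimulated response element in 1 and 1 and 3.44%. The metal response cores TGCGCNC and TGCACNC were in 3 and 4 and 15.4%, and in 3 and 1 and 12.6%. A match is a description of letters, not a bound site.

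Other granule genes were higher in tumor Tdp cells too, with Gzmm as the exception. Of 25 cytotoxic granule genes 20 had 20 CPM or more, and 14 of these were at least 2-fold higher and 1 lower, with a median log2 ratio of 1.87 beside 0.17 for all genes. Serpinb9, the inhibitor that shields killer cells from their own granzyme B, stood at 216 CPM in tumor Tdp and 9.16 CPM in lymph node Cd8 cells. Prf1, perforin, stood at 209 and 22.8 CPM, and Fasl, the death ligand, at 187 and 11.1 CPM. Nkg7, a granule membrane protein, had the highest level of the list at 3582 and 858 CPM, so it was abundant on both sides. Gzmm, granzyme M, went the other way, at 1.15 CPM in tumor Tdp and 22.2 CPM in lymph node Cd8 cells. Lamp1, the lysosomal membrane protein, was at 21.7 and 22.2 CPM. Granzymes are a family of near-identical copies in part (Gzmc to Gzmg), whose reads the counting could split, and these had under 10 CPM on both sides.

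Granzymes B and A differed in how they spread over Tdp cells. Gzma stood at 112 CPM in tumor Tdp and 17.5 CPM in lymph node Cd8 cells, but only 10.5% of Tdp cells had a Gzma UMI. Its most abundant thinned Tdp cell held 23 UMIs while the 75th percentile held 0. Over the whole list, thinned Tdp cells held a median of 20 granule UMIs (10 at the 5th and 36 at the 95th percentile) and lymph node Cd8 cells 4 (1 and 9). The 5th percentile of Tdp cells thus lay above the 95th percentile of lymph node Cd8 cells. Tumor Cd4 cells held a median of 14 and lymph node Cd4 cells 2.

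**Figure D2:**
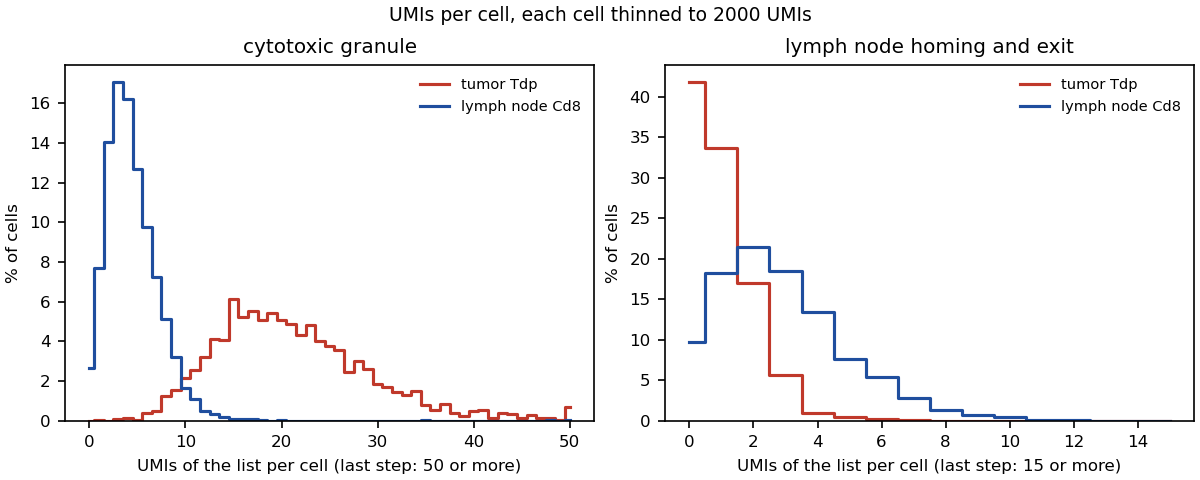
Percent of cells (vertical) by the number of UMIs per cell of the cytotoxic granule list (left) and of the lymph node homing and exit list (right), for 2663 tumor Tdp cells (red) and 2762 lymph node Cd8 cells (blue), each cell thinned to 2000 UMIs. Tdp cells centre on 20 granule UMIs against 4, and 41.8% of them hold 0 homing UMIs against 9.70% of lymph node Cd8 cells.

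Among secreted factors chemokines led by level. Ccl5, a chemoattractant of T cells and monocytes, had the highest level of any gene tested in tumor Tdp cells at 19650.0 CPM, and stood at 845 CPM in lymph node Cd8 cells, a 23.3-fold difference (22.9 to 23.6). A Ccl5 UMI was present in 97.0% of Tdp and 32.7% of lymph node Cd8 cells, and in 1.17% of lymph node Cd4 cells. Thinned Tdp cells held a median of 35 Ccl5 UMIs, with 15 at the 25th percentile and 60 at the 75th. Ccl4 stood at 1488 and 59.9 CPM and Ccl3 at 257 and 5.79 CPM, both chemoattractants of immune cells.

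The rest of the list held both directions. Of 13 effector cytokine and chemokine genes with 20 CPM, 9 were at least 2-fold higher in tumor Tdp cells and 1 lower, with a median of 2.97. Spp1, osteopontin, stood at 222 CPM in tumor Tdp cells and had 1 UMI in lymph node Cd8 cells (0.0552 CPM), a ratio of 4014 with a counting interval of 720.0 to 158590.0. It was present in 23.2% of Tdp cells. Csf1, the growth factor of macrophages, stood at 102 and 1.16 CPM. Ifng, interferon gamma, stood at 284 and 12.7 CPM, and Tnf at 141 and 30.7 CPM.

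The lower genes of this list were ligands and growth factors of other kinds. Tnfsf8, the ligand of CD30, stood at 4.17 CPM in tumor Tdp and 72.9 CPM in lymph node Cd8 cells. In Cd4-labelled cells the same gene stood at 53.2 CPM in tumor and 54.5 CPM in lymph node. Xcl1, a chemokine for cross-presenting dendritic cells, stood at 20.8 and 38.0 CPM, under 2-fold. Il2, the T cell growth factor, had 0 UMIs in Tdp cells and 135 in lymph node Cd8 cells (7.45 CPM), which is at least 45.3-fold lower against a floor of 3 UMIs over the group. Ccl9 had 32.0 CPM in Tdp cells and was at 0 throughout the lymph node library, so it was left out of the counts and no fold is given.

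Inhibitory receptors were higher in tumor Tdp cells, led by Havcr2 and Lag3. Of 20 list members 12 had 20 CPM, and 8 were at least 2-fold higher and 0 lower, with a median of 2.56. Havcr2, which encodes TIM-3, stood at 151 CPM in tumor Tdp cells and 0.221 CPM (4 UMIs) in lymph node Cd8 cells, a 685-fold difference (267 to 2515). Lag3, a receptor for MHC class II, stood at 741 and 10.8 CPM, and was present in 93.8% and 3.95% of cells. Lymph node Cd4 cells showed Lag3 in 0.427%. Pdcd1 (PD-1) stood at 279 and 11.4 CPM, Tigit at 391 and 16.8 CPM and Ctla4 at 421 and 79.6 CPM.

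Other members of this list were level or lower in tumor Tdp cells. Cd5, which dampens receptor signals, stood at 116 and 109 CPM, and Vsir (VISTA) at 78.2 and 79.1 CPM. Cd72 stood at 17.0 CPM in tumor Tdp and 34.2 CPM in lymph node Cd8 cells, a log2 ratio of -0.97 with the added 1. Btla, under the 20 CPM minimum, stood at 1.59 and 19.0 CPM. At 2000 UMIs per cell, 1.73% of Tdp cells and 46.0% of lymph node Cd8 cells had no UMI of any inhibitory receptor.

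Tox, a factor known for its role in exhausted CD8+ T cells, did not stand with these receptors. It was at 29.0 CPM in tumor Tdp and 41.0 CPM in lymph node Cd8 cells, a log2 ratio of -0.48. Eomes, a T-box factor of memory and killer cells, was at 42.4 and 51.8 CPM, and Runx3, which drives the CD8 lineage, at 81.3 and 74.7 CPM. Of 20 effector transcription factors with 20 CPM, 14 were at least 2-fold higher in tumor Tdp cells and 1 lower, with a median of 1.90. Bhlhe40 led at 893 and 26.9 CPM, followed by Litaf at 389 and 12.6 CPM. Zeb2, a repressor of late effector cells, stood at 36.9 and 0.442 CPM, Prdm1 (BLIMP-1) at 20.7 and 0.607 CPM and Tbx21 (T-bet) at 179.9 and 16.8 CPM. Id2, an inhibitor of E proteins, stood at 709.7 and 84.7 CPM. Ikzf2, which encodes Helios, was the lower one, at 4.38 CPM in tumor Tdp and 33.8 CPM in lymph node Cd8 cells.

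Factors of the resting state lay on the other side. Of 20 quiescence and naive transcription factors, all with 20 CPM, 0 were at least 2-fold higher and 11 lower in tumor Tdp cells, with a median of -1.33. Tcf7, which encodes TCF-1 of naive and stem-like T cells, stood at 2.03 CPM in tumor Tdp and 315 CPM in lymph node Cd8 cells, and was present in 1.15% and 80.7% of cells. Its 37 UMIs in Tdp cells make the level 155-fold lower (112 to 221). Klf3 stood at 0.767 and 151 CPM, Id3 at 0.822 and 116 CPM and Dtx1, a regulator of Notch signals, at 0.438 and 79.9 CPM. Lef1, the relative of Tcf7, was less far apart at 36.9 and 236 CPM, and Klf2, which keeps T cells at rest, at 183 and 1131 CPM. Btg1, an antiproliferative gene and the most abundant of the list, was not lower, at 1809 and 1172 CPM, nor was Foxp4 at 38.5 and 21.0 CPM.

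Receptors of lymph node entry and exit were low in tumor Tdp cells. Ccr7, the chemokine receptor that guides T cells into lymph nodes, had the lowest ratio of any named gene, at 0.603 CPM (11 UMIs) in tumor Tdp and 412 CPM in lymph node Cd8 cells. It was present in 0.371% of Tdp cells (0.178% to 0.682%) and 73.1% of lymph node Cd8 cells, and at 2000 UMIs in 0.188% and 46.0%. Tumor Cd4 cells had more, with Ccr7 in 2.37% of cells and at 15.4 CPM. S1pr1, the receptor for exit into lymph, stood at 8.11 and 109 CPM.

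The list as a whole held 12 genes with 20 CPM, of which 7 were at least 2-fold lower in tumor Tdp cells and 1 higher, with a median of -1.91. Itgae, the CD103 chain that binds epithelium, stood at 0.329 and 45.8 CPM, and Cxcr4 at 0.548 and 44.9 CPM. The higher gene was Adora2a, the adenosine receptor, at 94.9 and 16.9 CPM. Itgal, a chain of LFA-1, stood at 176 and 95.8 CPM.

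Inflammatory homing receptors were higher in part. Of 12 with 20 CPM, 6 were at least 2-fold higher in tumor Tdp cells and 0 lower, with a median of 1.05. Itga1, a collagen-binding integrin chain, stood at 27.9 CPM in tumor Tdp cells and had 1 UMI in lymph node Cd8 cells, and Ccr2 stood at 169.9 and 6.57 CPM. Cxcr6 stood at 327 and 33.5 CPM. Cxcr3, a receptor of type 1 responses, was at 67.9 and 40.6 CPM, and Cd69, an early activation marker that also holds cells in tissue, at 484 and 762 CPM. Selplg, the selectin ligand, had a high level on both sides, at 676 and 439 CPM.

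**Figure D3:**
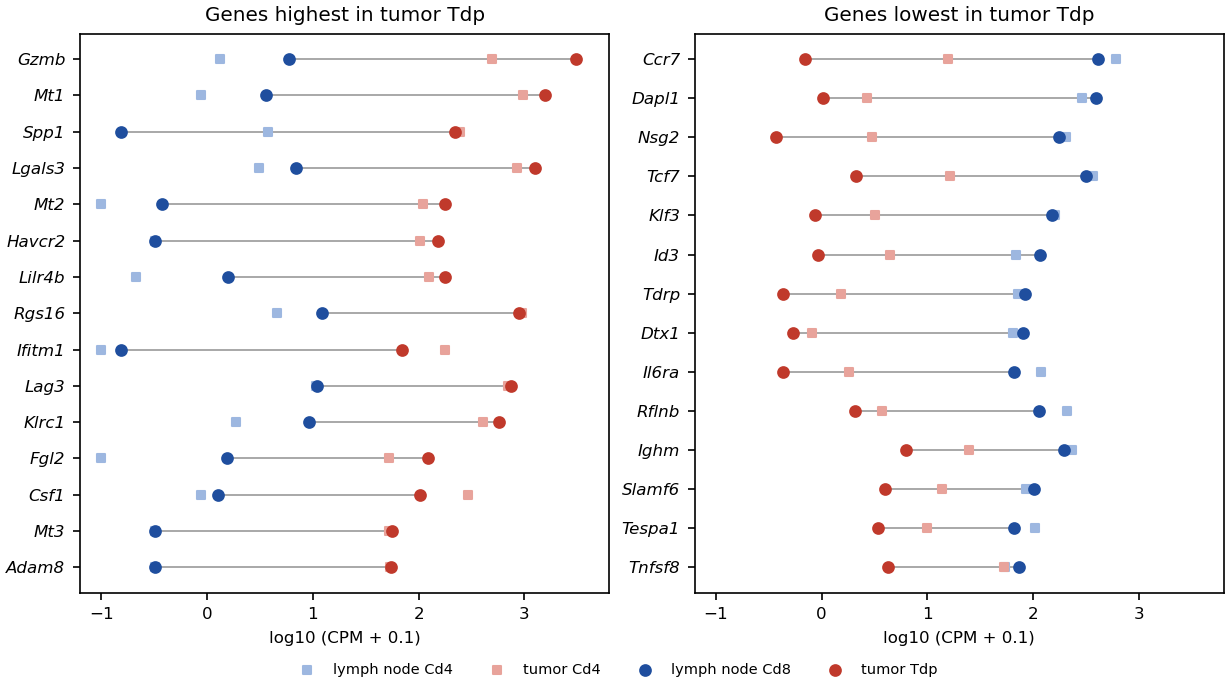
Levels, as log10 of CPM + 0.1, of the 15 genes with the highest (left) and 14 of the 15 with the lowest (right) ratios of tumor Tdp to lymph node Cd8 cells, with circles for tumor Tdp (red) and lymph node Cd8 cells (blue) joined by a line and squares for Cd4-labelled cells of tumor (pale red) and lymph node (pale blue). Tnfsf8 is the gene whose tumor Cd4 level (53.2 CPM) is close to its lymph node Cd4 level (54.5 CPM), while Tdp cells have 4.17 CPM and lymph node Cd8 cells 72.9 CPM.

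Some lectin receptors of natural killer cells were high in tumor Tdp cells. All 5 of the list with 20 CPM were at least 2-fold higher, with a median of 2.74, while 15 of the 20 genes were under the minimum. All but Klrd1 reached the minimum only in Tdp cells, such as Klre1 at 45.8 and 6.02 CPM, so their direction was fixed by it. Members under the minimum held both directions, with Klrc2 higher in Tdp cells and Klrb1c lower (1.53 and 2.70 CPM). Klrc1 (NKG2A, an inhibitory receptor) stood at 580 CPM in tumor Tdp and 8.996 CPM in lymph node Cd8 cells, and Klrk1 (NKG2D, an activating receptor) at 489 and 14.5 CPM. Klrd1 (CD94), the partner of NKG2A, was less far apart at 606 and 163 CPM. Klrk1 was present in 89.5% of Tdp and 3.59% of lymph node Cd8 cells.

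Costimulatory and cytokine receptors were mixed. Of 15 costimulatory receptors 7 were at least 2-fold higher in tumor Tdp cells and 2 lower, with a median of 0.90. Tnfrsf9 (4-1BB) stood at 103 and 9.66 CPM and Tnfrsf4 (OX40) at 126 and 18.6 CPM. Slamf6, a mark of stem-like T cells, stood at 3.84 and 100.9 CPM, and Cd226, the partner of TIGIT in ligand binding, at 17.7 and 50.2 CPM. Cd2, an adhesion receptor, had the highest level at 633 and 307 CPM.

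Of 20 interleukin and interferon receptor chains 8 were at least 2-fold higher and 3 lower, with a median of 0.52. Il12rb2, which completes the receptor of IL-12, stood at 80.8 CPM in tumor Tdp and 2.87 CPM in lymph node Cd8 cells. Il2ra, the high-affinity chain for IL-2, stood at 82.9 and 3.26 CPM, although no Il2 UMI was found in Tdp cells. Il6ra stood at 0.329 and 65.5 CPM, its signalling partner Il6st at 10.7 and 55.1 CPM, and Il7r, the survival receptor of resting cells, at 119 and 282 CPM. Ifngr2 had 25.7 CPM in lymph node Cd8 cells and was at 0 throughout the tumor library, so no fold is given.

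Of 26 genes of the CD3 complex and proximal signalling 4 were at least 2-fold higher and 1 lower, beside 16.4% of all genes past 2-fold in either direction, with a median of 0.10, which became -0.21 without ribosomal, mitochondrial and receptor genes in the total. Cd3g stood at 2086 and 875 CPM and Cd3e at 1838 and 790.2 CPM. Ubash3b, a phosphatase that limits receptor signals, had the highest ratio at 99.6 and 18.3 CPM, and Dgka, a kinase that dampens them, the lowest at 75.1 and 205 CPM. Fyn, a kinase of proximal signalling, stood at 70.1 and 97.1 CPM. Trbc2, a beta chain constant gene, stood at 2179 and 204 CPM and Trac, the alpha constant gene, at 759 and 222 CPM. Trbc1, the other beta chain constant gene, went the other way at 60.6 and 108 CPM. The sides differ in their receptors, as given above, and the part of this in these levels was not tested.

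Transcripts that follow receptor signals held both directions. Of 21 such genes 9 were 2-fold or more higher in tumor Tdp cells and 3 lower, with a median of 0.94. Rgs16, which limits chemokine receptor signals, stood at 896 and 12.0 CPM and Nr4a2 at 559.6 and 103 CPM. Nr4a1 (NUR77), in common use as a reporter of receptor signals, was closer, at 415 and 292 CPM. The lower ones were Egr2 at 11.4 and 32.5 CPM, Myc at 18.1 and 87.6 CPM, and Cd83 at 0.493 and 20.5 CPM.

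FOS and JUN family transcripts split by member. Of 17 AP-1 and immediate early genes 5 were at least 2-fold higher and 4 lower in tumor Tdp cells, with a median of -0.04, which became 0.02 with cells thinned to 2000 UMIs. Fos itself stood at 74.2 CPM in tumor Tdp and 573 CPM in lymph node Cd8 cells, and Zfp36, an mRNA decay factor of the early response, at 204 and 619.7 CPM. Jun stood at 134 and 319 CPM. The stress factor Atf3 stood at 119.9 and 16.9 CPM, Fosl2 at 248 and 51.6 CPM and Jund at 1281 and 501 CPM. Junb, the most abundant of the list, was at 1952 and 1669.6 CPM.

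Interferon response genes held both directions. Of 28 type I genes 0 were at least 2-fold higher and 3 lower in tumor Tdp cells, with a median of -0.36 beside 0.17 for all genes. Isg15 was at 243 and 242 CPM and Mx1 at 33.5 and 21.3 CPM, while Oasl2 stood at 2.79 and 42.5 CPM and Slfn5 at 7.23 and 29.3 CPM. Of 20 genes of the interferon gamma GTPase and Ifitm list 6 were higher and 4 lower, with a median of -0.21. The Ifitm membrane proteins, which block virus entry, were on the high side, with Ifitm3 at 129 and 3.53 CPM. Ifitm1 stood at 70.2 CPM and had 1 UMI in lymph node Cd8 cells, but it was present in only 6.54% of Tdp cells. The GTPases were on the low side, with Iigp1 at 6.08 and 28.9 CPM, and Tgtp1 at 1.26 and 25.4 CPM, a gene whose reads the counting could split with its copy Tgtp2. MHC class I genes were nearly level, with 1 of 21 at least 2-fold higher and 0 lower and a median of 0.33.

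Metallothioneins were also on the high side. The metallothioneins bind zinc and copper, and Mt1 stood at 1551 and 3.53 CPM, a 439-fold difference (344 to 570.3). Mt2 stood at 178 and 0.276 CPM and Mt3 at 56.5 and 0.221 CPM. A Mt1 UMI was present in 93.5% of Tdp and 1.43% of lymph node Cd8 cells, and in 0.320% of lymph node Cd4 cells. Among 8 genes of metal handling with 20 CPM, 4 were at least 2-fold higher and 0 lower, while Ftl1 and Fth1, the iron store ferritin, stood at 1595 and 1320.4 CPM and at 2504 and 1531 CPM.

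Of 19 S100, galectin, annexin and related genes 13 were at least 2-fold higher and 0 lower, with a median of 2.23. Lgals3, galectin-3, stood at 1259 and 6.79 CPM and Anxa1, annexin A1, at 79.8 and 1.21 CPM. S100a6, a calcium-binding protein, stood at 5058 and 232 CPM and was present in 99.3% of Tdp and 26.1% of lymph node Cd8 cells. Tmsb4x, which binds actin monomers, was the most abundant at 12935 and 9198 CPM.

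Genes of glycolysis were higher in part. Of 15 glycolysis genes 7 were 2-fold or more higher in tumor Tdp cells and 1 lower, with a median of 0.96. Slc2a3, a glucose transporter, stood at 69.3 and 11.5 CPM, Tpi1 at 157 and 39.8 CPM and Aldoa, the most abundant, at 999 and 320 CPM. Pdk1, which keeps pyruvate out of mitochondria, went the other way at 7.34 and 53.3 CPM. Of 11 hypoxia genes 3 were higher and 0 lower, with a median of 0.88. Of 38 oxidative phosphorylation genes 1 was higher and 1 lower, and of 26 proteasome genes 0 and 0, with medians of 0.21 and 0.28 that became -0.11 and -0.03 without ribosomal, mitochondrial and receptor genes in the total. Of 32 cell cycle genes 11 had 20 CPM, and 0 of these were past 2-fold in either direction, with a median of 0.03 that became -0.31 on that total, and Mki67, below the minimum, was at 8.61 and 2.43 CPM. An alternative that left out cycling cells removed 73 Tdp and 29 lymph node Cd8 cells.

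Ribosomal protein transcripts were lower together. Of 46, 45 had a ratio below 0 and 5 were at least 2-fold lower, with a median of -0.59 and a range from Rpl27 at 2140.4 and 2111 CPM to Rps29 at 1957 and 4302 CPM. Of 21 translation factors 1 was higher and 1 lower, with a median of -0.11. Of 20 protein folding genes of the endoplasmic reticulum 4 were higher and 0 lower, with a median of 0.65, led by Xbp1, a factor of the unfolded protein response, at 80.8 and 26.8 CPM. Cytosolic heat shock genes were level, with 1 of 13 higher, 0 lower and a median of -0.12. Of 24 actin genes 1 was higher and 0 lower, with a median of 0.43. Of 20 cholesterol genes only 3 had 20 CPM, with 0 past 2-fold and a median of -0.35.

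Survival genes differed by member. Of 18 BCL2 family and death genes 4 were at least 2-fold higher and 1 lower, beside 11.4% and 5.05% of all genes. Their median was 0.34, which became 0.04 without ribosomal, mitochondrial and receptor genes in the total. Bcl2, which keeps resting T cells alive, stood at 30.6 CPM in tumor Tdp and 243 CPM in lymph node Cd8 cells. Bcl2a1d, a BCL2 relative induced by stimulation with near copies in the genome, stood at 87.5 and 8.50 CPM. Of 8 Gimap GTPases of lymphocyte survival 1 was higher and 0 lower, close to the shares of all genes. Their median was 0.59, and Gimap7 led at 216 and 55.5 CPM.

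**Figure D4:**
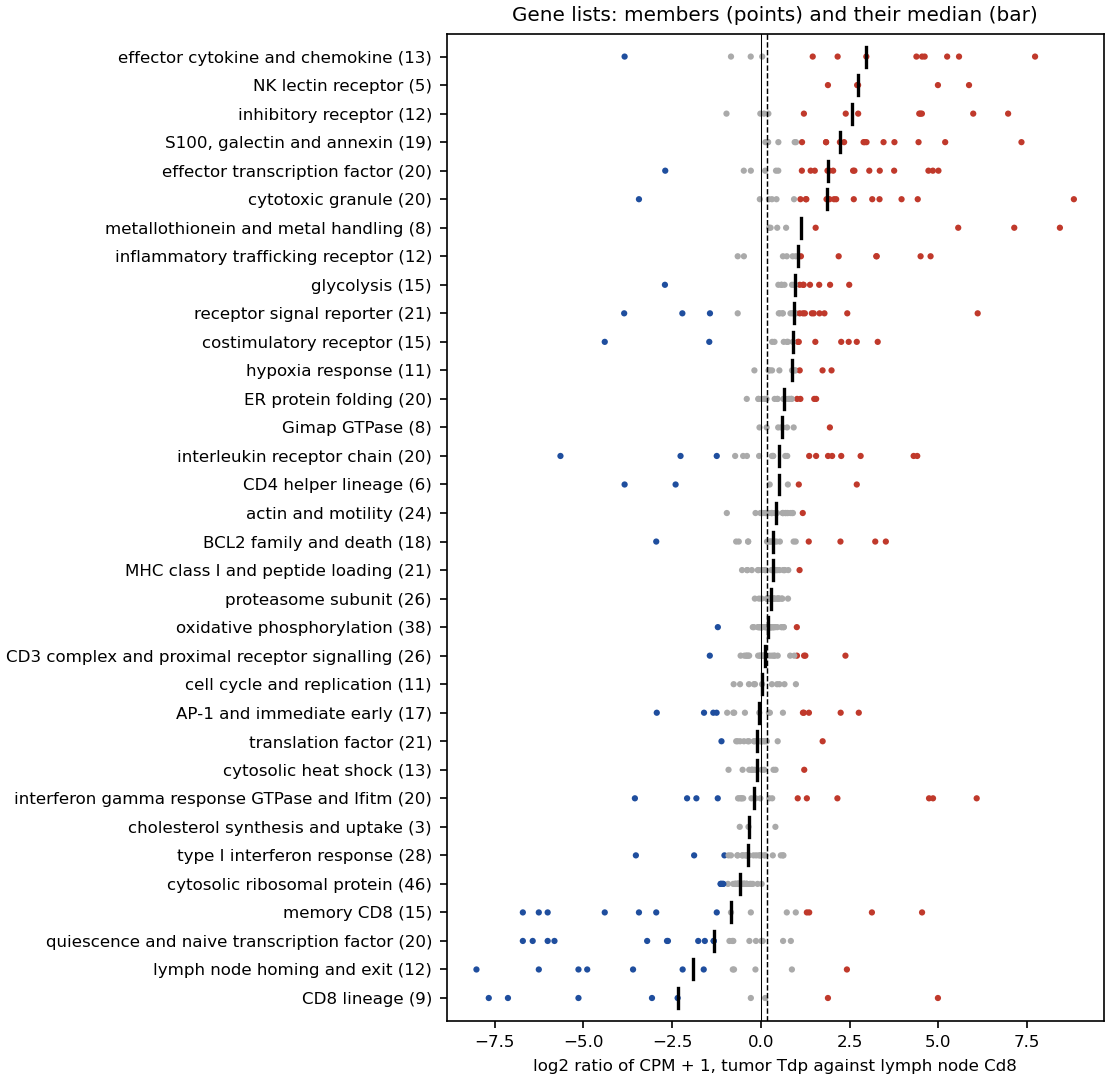
Log2 ratio of CPM + 1, tumor Tdp over lymph node Cd8 cells (horizontal), of each member with 20 CPM or more (points, red at least 2-fold higher, blue at least 2-fold lower) of 34 gene lists, with the number of such members in parentheses and the median as a black bar. The dashed line marks the median of all 4830 genes (0.17); list medians run from 2.97 for effector cytokines and chemokines to -2.34 for CD8 lineage genes.

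Members of the CD8 and CD4 lineage lists held both directions. Of 9 CD8 lineage genes, coreceptors aside, 2 were at least 2-fold higher in tumor Tdp cells and 5 lower, with a median of -2.34. The higher ones were Klrk1 and Klrd1, given above. The lower ones include Dapl1, a gene of naive T cells, at 0.932 and 390.5 CPM, and Nsg2 at 0.274 and 177 CPM. Lymph node Cd4 cells had them at 290 and 203 CPM, so these members do not separate the lineages here. Cd7 stood at 23.6 and 205 CPM. Of 6 CD4 helper genes with 20 CPM 2 were higher and 2 lower, with Tnfrsf4 and Icos (212 and 100.6 CPM) high and Izumo1r (11.3 and 64.2 CPM) and Tnfsf8 low. Zbtb7b, the factor ThPOK that keeps CD4 cells from the CD8 fate, was below the minimum at 9.32 CPM in tumor Tdp and 2.32 CPM in lymph node Cd8 cells, with 31.6 CPM in tumor Cd4 and 31.0 CPM in lymph node Cd4 cells. Cd40lg, the helper ligand, stood at 6.85 and 15.01 CPM, against 162 CPM in tumor Cd4 cells.

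Ighm, the constant gene of immunoglobulin M, was among the named lower genes, at 6.14 CPM in tumor Tdp and 195 CPM in lymph node Cd8 cells. It was present in 64.4% of lymph node Cd8 and 60.2% of lymph node Cd4 cells, against 2.90% of Tdp and 10.8% of tumor Cd4 cells. Beside it Igkc stood at 1.10 and 0.221 CPM and Cd79a at 0 UMIs and 0.552 CPM. Trdc, the delta chain constant gene, stood at 139.5 and 2.15 CPM, and at 114 CPM in tumor Cd4 cells. Every called Tdp cell carried a chain of the receptor taken as transgenic, and whether each call held an alpha and a beta chain was not checked. The other named genes on the low side were Tdrp (0.329 and 83.6 CPM), Rflnb (1.97 and 114 CPM) and Tespa1, which takes part in thymocyte receptor signals (3.29 and 66.2 CPM). On the high side they were Lilr4b, an inhibitory receptor known from myeloid cells (177 and 1.49 CPM), Fgl2, a soluble fibrinogen-like suppressor (122 and 1.43 CPM), and Adam8, a membrane protease (55.0 and 0.221 CPM).

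Lymph node Cd8 cells were not uniform, and those with memory or effector transcripts were nearer to Tdp cells in some genes and farther in others. A UMI of Eomes, Gzma, Gzmb, Gzmk or Cxcr3 was present in 1068 of them (38.3%, median 7042.5 UMIs) and absent from 1720 (median 5931.5 UMIs), and deeper cells have more chance to show such a UMI. Ccl5 stood at 1359.7 CPM in the first class and 460.3 CPM in the second, Ly6c2 at 1377 and 925 CPM and Nkg7 at 1041 and 722 CPM, against 19650.0, 2743 and 3582 CPM in Tdp cells. Xcl1, at 70.8 and 13.6 CPM, and Gzmm, at 37.2 and 11.1 CPM, were highest in the first class and low in Tdp cells. Havcr2 was at 0.387 and 0.0964 CPM, Lag3 at 11.9 and 9.93 CPM and Mt1 at 2.71 and 4.14 CPM, so neither class had the levels of Tdp cells. Tcf7 (298 and 327 CPM) and Ccr7 (357 and 453 CPM) were high in both. Of 15 memory CD8 genes 4 were at least 2-fold higher in Tdp than in all lymph node Cd8 cells and 7 lower, with a median of -0.84. That median was -0.20 with cells thinned to 2000 UMIs, -0.26 without the top 5% of cells by UMIs and -0.33 as a mean of each cell's CPM.

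Within Tdp cells those with and without a Cd4 UMI were close. Cells with both coreceptors (median 6891.5 UMIs) and those with Cd8 genes only (median 5810.5 UMIs) had Gzmb at 3122 and 3016 CPM, Ccl5 at 19816 and 20824 CPM, Lag3 at 764 and 673 CPM and Tcf7 at 1.74 and 2.43 CPM. The 86 cells with Cd4 UMIs only were farther off, with Gzmb at 1689 CPM, Ccl5 at 9242 CPM, Cd40lg at 91.1 CPM and Ikzf2 at 41.4 CPM, against 4.80 and 3.48 CPM of the last 2 genes in cells with both coreceptors.

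**Figure D5:**
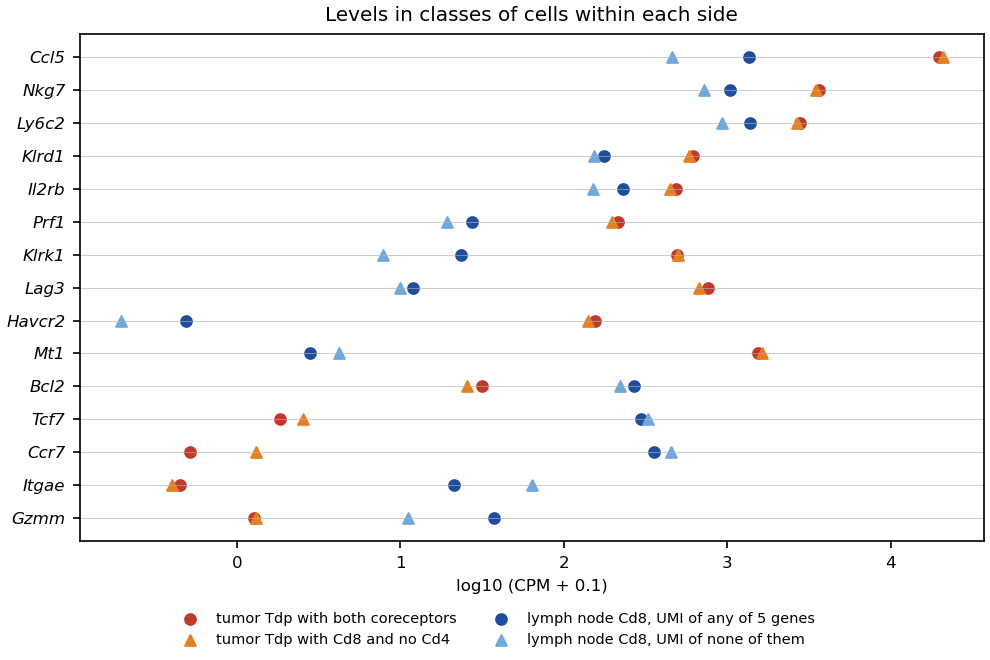
Levels of 15 genes, as log10 of CPM + 0.1, in 2028 tumor Tdp cells with UMIs of both coreceptors (red circles), 554 with Cd8 genes only (orange triangles), 1068 lymph node Cd8 cells with a UMI of Eomes, Gzma, Gzmb, Gzmk or Cxcr3 (dark blue circles) and 1720 without (light blue triangles). The red and orange points lie close together, as for Lag3 (764 and 673 CPM), and the lymph node classes stand apart for Ccl5 (1359.7 and 460.3 CPM) and Gzmm (37.2 and 11.1 CPM) among others.

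The same tissues held Cd4-labelled cells, which give a second comparison from the same 2 libraries. Its sides also differ in receptor origin and transfer. All 2435 tumor Cd4 cells with a receptor call carried a chain of the receptor taken as transgenic, against 0 of 1793 in lymph node. Between 2451 tumor and 1873 lymph node Cd4 cells, 756 of 5126 genes (14.7%) stood 2-fold or more above lymph node in tumor and 313 (6.11%) below. Many named genes stood on the same side in both comparisons, and since the libraries are shared no overlap is given as a result. Havcr2 had log2 ratios of 6.96 (Tdp over Cd8) and 6.42 (tumor over lymph node Cd4), Mt1 of 8.42 and 9.09 and Ccr7 of -8.01 and -5.20. List medians were 1.87 and 1.72 for cytotoxic granule genes, 2.56 and 4.04 for inhibitory receptors, -1.33 and -1.61 for quiescence factors and -1.91 and -1.49 for homing genes.

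Some members differed between the comparisons. Prf1 had log2 ratios of 3.14 (Tdp over Cd8) and 0.69 (tumor over lymph node Cd4), with levels of 209 CPM in Tdp against 23.6 CPM in tumor Cd4 cells. Gzma had 2.62 and 0.61. Nkg7 had 2.06 and 6.21, where the lymph node Cd8 cells already held 858 CPM and the lymph node Cd4 cells 31.1 CPM. Eomes had -0.28 and 1.91. These differences between comparisons were not tested, since each rests on 1 library per tissue.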

How the data were processed

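Single T cells of 1 tumor and 1 lymph node RNA library were prepared with the 10x 5′ kit, and the labels' protocols give 8100 cells for each sample. Cell Ranger 3.1.0 and mm10 were used, per the submitters' processing notes. The deposited table holds raw UMI counts of 14721 genes in 10558 cells, made by the authors, and was checked to hold whole numbers only. A deposited annotation holds other values per cell, the tissue, the authors' cell label and the receptor. No cell filter is named in the sources used here.

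UMIs were summed per side and scaled to CPM. Genes with 20 CPM or more on either side were given a log2 ratio, with a pseudocount of 1 CPM, and called at 2-fold. Receptor segments, Cd4, Cd8a, Cd8b1 and genes at 0 throughout either library (1768 in tumor, 841 in lymph node) were left out. Intervals are exact, conditional Poisson for ratios and Clopper-Pearson for shares of cells, at 95%. Shares and UMIs per cell were also taken with cells thinned to 2000 UMIs, which left out 30 Tdp and 26 lymph node Cd8 cells. No doublet caller was run, and an alternative left out the top 5% of cells by UMIs. The ratio code was tested on simulated counts.

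Named genes are, per direction, the 15 with the largest ratio among genes with 50 CPM or more on the higher side and 100 or more UMIs. Predicted, receptor, ribosomal protein, mitochondrial and Y-linked genes, Xist and genes at 0 in a library were not named. Of the 15 genes on the low side, 1 is not reported here. Members of 35 gene lists are named for the 2 highest and 2 lowest ratios and the highest level of their list, and the other members named were chosen after their values were seen. The members and lists were chosen with earlier results of these data known. Of 13 marker lists, the T cell list summed to 9609 CPM in Tdp and 4208 CPM in lymph node Cd8 cells, the regulatory T cell list to 720.1 and 251 CPM, the innate-like T cell list to 144 and 7.29 CPM and the dendritic cell list to 30.6 and 51.9 CPM. Most of the regulatory T cell sum was Ctla4, at 421 and 79.6 CPM, and Tnfrsf18, at 198 and 67.8 CPM. Foxp3 of that list went the other way at 0.274 and 2.48 CPM (5 and 45 UMIs), as did Ikzf2 and Izumo1r. The neutrophil list summed to 0.0548 and 0.110 CPM, the fibroblast list to 0 and 0.386 CPM and the endothelial list to 3.56 and 28.7 CPM, and no gene of the erythroid list is in the table. Promoters come from RefSeq, GRCm38.p6. A planned comparison of motif shares between all genes called higher and lower was void, since 78.0% and 74.2% of them had a promoter there. Python 3.11.15, numpy 2.4.6, scipy 1.17.1, pandas 2.3.3 and matplotlib 3.10.9 were used, with R 4.3.3 and edgeR 4.0.16 for TMM factors only.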

Additional observations from a re-analysis of the deposited data

Results flagged for a closer look

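Ikzf2, which encodes Helios, lay on opposite sides in the comparisons of Tdp with Cd8 cells and of Cd4 cells with Cd4 cells. Its log2 ratio was -2.69 for tumor Tdp over lymph node Cd8 cells (4.38 and 33.8 CPM) and 1.53 for tumor over lymph node Cd4 cells (14.7 and 4.45 CPM). Among Tdp cells the 86 with Cd4 UMIs only stood at 41.4 CPM and those with both coreceptors at 3.48 CPM. Cd83, a membrane protein of activated cells, did the same, with a log2 ratio of -3.85 (0.493 and 20.5 CPM) against 2.80 (16.8 and 1.56 CPM). Each rests on 1 library per tissue, and the difference between the comparisons was not tested.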

How the results depend on the processing

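Of 16 alternatives, 15 planned and 1 added after the data were seen (leaving out barcodes found in both libraries), none turned the direction of any of the 30 named genes or of a list median past 2-fold. For the named genes this was largely fixed beforehand, since they were picked for the largest ratios. A changed CPM minimum, or keeping genes at 0 throughout a library, leaves their ratios as they are. Leaving ribosomal protein, mitochondrial and receptor genes out of the total raised the genes tested to 6448 and the lower ones from 244 to 655, with 432 higher, so 39.7% of calls were higher in place of 69.3%. TMM scaling gave 490 higher and 275 lower. A minimum of 1 CPM gave 1010 higher and 744 lower and a minimum of 50 CPM 343 and 119. The other alternatives stayed within 1.5 times of 550 and 244. Leaving out cells with B cell, myeloid or melanoma marker UMIs (173 Tdp and 131 lymph node Cd8 cells) gave 546 and 246. Ighm, Cd79b, Cd68, Cd74, Itgax and Mitf were not among those markers, so cells with UMIs of these alone were kept. Ighm was present in 64.4% of lymph node Cd8 cells. List medians moved by up to 2.45 on the log2 scale at a minimum of 1 CPM, 2.25 at 50 CPM and 1.65 on the total without ribosomal genes, where other members pass the minimum. That of effector cytokines and chemokines (2.97) was 0.52, 4.38 and 1.51 there, and that of inhibitory receptors (2.56) was 1.21, 4.46 and 0.91. Over their members tested at 20 CPM that total gave 2.80 and 2.31. The memory CD8 median, which is under 2-fold, turned from -0.84 to 0.92 without the lymph node cells chosen by UMIs of memory or effector genes, a choice that itself lowers such genes there. No paired analysis was possible because each side is 1 library with no replicate number, and for the same reason no library could be left out. Levels at or under 3 UMIs on a side, 0.164 CPM in Tdp and 0.166 CPM in lymph node Cd8 cells, are limited by depth.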
